A study of Mus musculus with 8 samples.

Results

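The transcripts described are the 10 genes of the lower part of glycolysis and of lactate formation: Aldoa, Tpi1, Gapdh, Pgk1, Pgam1, Eno1, Eno3, Pkm, Ldha and Ldhb. They were chosen by name from the authors' table of 11234 genes, without use of their measured values, and all 10 names were found there, pyruvate kinase M being listed as Pkm. RNA was taken from interscapular brown fat of male C57BL/6 mice, 12 weeks old, that had lived for 2 weeks at 29 °C and were killed at 5 PM (zeitgeber time 10). The 4 control libraries (replicates 11, 12, 13 and 14) are labelled HDAC3 floxed. The 4 knockout libraries (replicates 4, 5, 19 and 20) are labelled Adiponectin-Cre, HDAC3 floxed, so that both groups carry the floxed allele and only the knockout carries Cre, which the adiponectin promoter drives in fat cells. The deletion is therefore aimed at adipocytes, and the other cells of the dissected tissue keep the gene. HDAC3, a histone deacetylase, acts within corepressor complexes, and the comparison asks which glycolytic transcripts of warm-housed brown fat differ without it.

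Glycolysis breaks glucose down to pyruvate in the cytosol. In its lower part, aldolase splits the phosphorylated sugar, triose phosphate isomerase interconverts both products, and a chain of enzymes from glyceraldehyde-3-phosphate dehydrogenase to pyruvate kinase yields ATP, NADH and pyruvate. Lactate dehydrogenase then interconverts pyruvate and lactate. Its A subunit, from Ldha, predominates in fast muscle, and its B subunit, from Ldhb, in heart. Brown fat takes up much glucose when it makes heat, and lactate is both released and used by it.

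All levels below are RPKM (read number divided by gene length and library size) rescaled by TMM, a factor per library that sets most genes to equal levels. Changes are differences of log2(RPKM + 1) with their standard error, from limma over the 8764 genes whose mean level reached 1 RPKM, and adjusted p is Benjamini-Hochberg over all of them with a threshold of 0.05. Implied library totals were 13619308 to 17986134 reads, and 17.1% to 20.1% of control reads against 21.4% to 24.96% of knockout reads fell on listed genes. The labels give no batch, nor whether the libraries stem from different mice; p-values therefore reflect library-to-library spread, which may be technical. Hdac3 itself averaged 7.64 ± 0.511 RPKM in controls and 3.29 ± 0.588 RPKM in knockouts (SD, n = 4 each), or 43.0% of the control mean. Of 8 genes listed for brown adipocytes, 5 rose (Fabp4, Plin1, Lipe, Adipoq and Cidea) and 2 fell (Ucp1 and Cox7a1), beside 19.4% and 15.9% of all tested genes. Pparg did not pass the test. The 8 genes moved in both directions and their sum is mostly Fabp4, so that sum is no measure of brown adipocytes. Their summed level was 2859 to 3153 RPKM in control and 4875 to 5808 RPKM in knockout libraries, with Fabp4, a fatty acid carrier, at 1698 ± 59.8 and 3985 ± 393 RPKM and Ucp1, the uncoupling protein of heat production, at 158.9 ± 40.3 and 4.01 ± 2.90 RPKM (SD, n = 4 each). Of 12 macrophage markers in the table, 11 were tested and 10 rose, beside 19.4% of all tested genes. The summed level of the 12 was 43.1 to 56.8 RPKM in control and 87.2 to 103.6 RPKM in knockout libraries. In bulk tissue, fewer cells of a type and less RNA per cell cannot be told apart, and the part that cell makeup has in the results below was not tested.

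Brown fat lacking Hdac3 in adipocytes held less message for the B subunit of lactate dehydrogenase, for pyruvate kinase M and for enolase 1. Ldhb fell to 53.4% of its control mean, Pkm to 68.8% and Eno1 to 76.0%. Aldoa, Tpi1, Gapdh, Pgk1, Pgam1 and Ldha did not pass the test, with knockout means between 92.3% and 106.5% of control. Eno3 did not pass either, and its comparison turned on 1 control library. In all, 3 of the 10 transcripts fell and 0 rose, beside 15.9% of all tested genes that fell, 19.4% that rose and 35.3% that were called in either direction. All 10 passed the filter on low values. Their median log2 change was -0.07, beside 0.01 over all genes tested. With the library total alone, 2 fell and 0 rose, beside 7.17% of all genes lower, 31.9% higher and 39.1% in either direction. Scaled by the summed reads of listed genes, 4 fell and 0 rose, beside 30.2% lower, 12.4% higher and 42.7% in either direction. In the authors' deposited table, 3 of the 10 (Eno1, Pkm and Ldhb) had an FDR below 0.05, beside 33.6% of its genes.

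**Figure D1:**
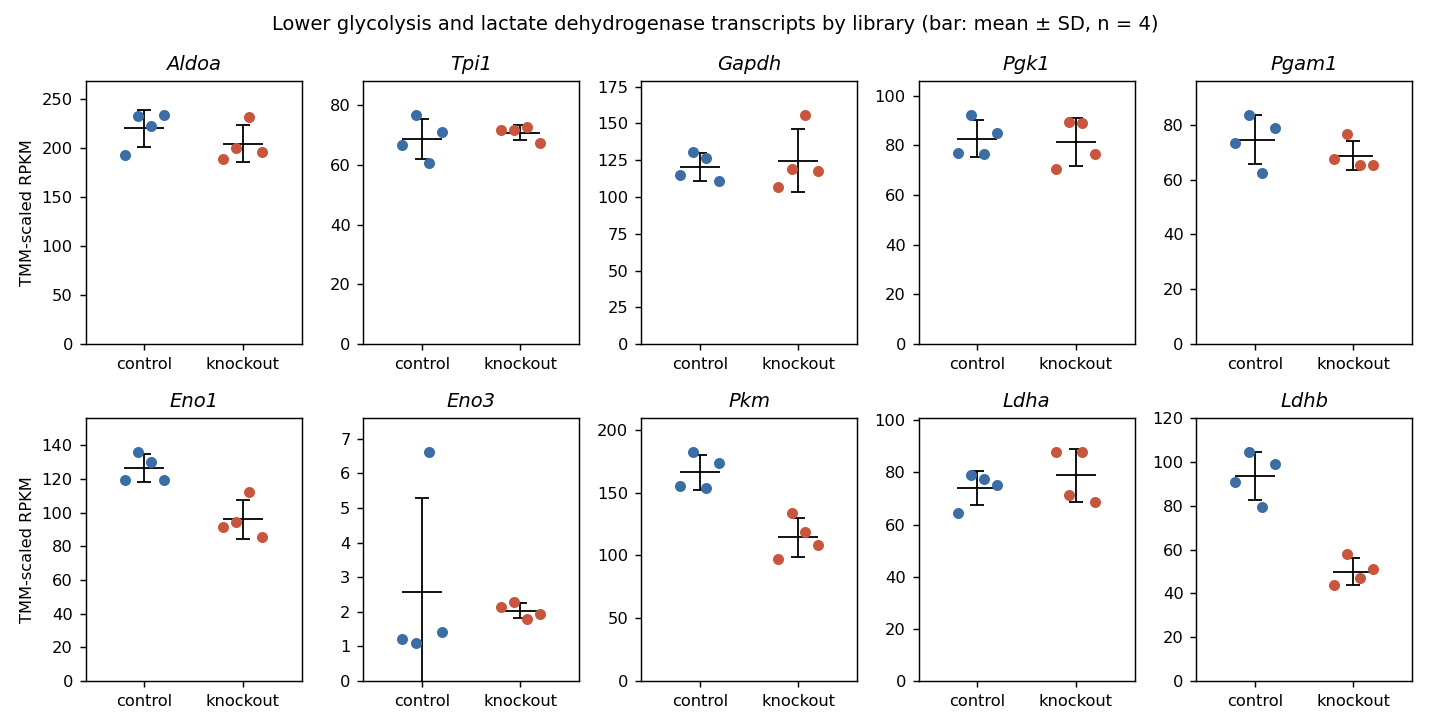
Level of each of the 10 transcripts in each library, in TMM-scaled RPKM on axes that start at 0; points are libraries, horizontal bars are means and error bars are SD (n = 4 in each genotype). The knockout points of Eno1, Pkm and Ldhb lie below every control point, and 1 control library stands at 6.62 RPKM for Eno3.

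Ldhb showed the largest change among the 10. Its level was 91.1, 104.6, 79.6 and 99.2 RPKM in control replicates 11, 12, 13 and 14, and 44.0, 57.9, 46.8 and 51.4 RPKM in knockout replicates 4, 5, 19 and 20. Every knockout library was below every control library, as in 16.0% of all tested genes, with control replicate 13 the lowest of its group. The means were 93.6 ± 10.9 and 50.02 ± 6.06 RPKM (SD, n = 4 each), a log2 change of -0.89 ± 0.11 (SE; limma, adjusted p = 0.000198). The call was made on 1042 to 2228 reads per library. Ldhb remained past the threshold under all 15 alternatives of scaling, filter, pseudocount, test and left-out library, with limma adjusted p between 1.26e-05 and 0.000964. In the authors' deposited table its log2 fold change was -0.92, with an FDR of 3.95e-14.

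Ldha, the gene of the A subunit, did not pass the test. It stood at 64.5, 79.1, 77.3 and 75.0 RPKM in control replicates 11, 12, 13 and 14, and at 87.7, 71.2, 87.8 and 68.7 RPKM in knockout replicates 4, 5, 19 and 20. The groups overlapped, since knockout replicates 4 and 19 were above all controls while knockout replicates 5 and 20 lay among them. The log2 change was 0.09 ± 0.11 (SE; limma, adjusted p = 0.568), with a 95% interval from -0.15 to 0.32. Both subunits can be compared per length within a library, which removes the library scaling. Ldhb made up 58.5%, 57.0%, 50.7% and 56.9% of the summed Ldha and Ldhb RPKM in control replicates 11, 12, 13 and 14, and 33.4%, 44.8%, 34.8% and 42.8% in knockout replicates 4, 5, 19 and 20. The share averaged 55.8% ± 3.46 in controls and 39.0% ± 5.70 in knockouts (SD, n = 4 each), above 50% in every control and below it in every knockout library. Ldhd, a mitochondrial dehydrogenase of D-lactate, stood at 24.1 ± 1.31 and 24.2 ± 0.951 RPKM (SD, n = 4 each; limma, adjusted p = 0.934).

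The start regions of both lactate dehydrogenase genes are shown because one transcript fell and the other did not. They come from RefSeq (GRCm38.p6, a later build than the mm9 the authors used), run from 250 bases before to 50 after the start, and are written 5′ to 3′ on the gene's strand. Capitals mark ACGTG and GCGTG, the cores that hypoxia-inducible factors bind, on either strand (read as CACGT and CACGC on the other).
Ldhb (chr6:142507908-142508207, minus strand): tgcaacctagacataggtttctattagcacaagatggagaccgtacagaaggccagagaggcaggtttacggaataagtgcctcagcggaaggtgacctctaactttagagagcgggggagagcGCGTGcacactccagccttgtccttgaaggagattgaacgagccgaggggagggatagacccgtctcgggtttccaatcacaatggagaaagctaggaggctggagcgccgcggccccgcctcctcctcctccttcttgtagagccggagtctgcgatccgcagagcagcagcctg
Ldha (chr7:46845554-46845853, plus strand): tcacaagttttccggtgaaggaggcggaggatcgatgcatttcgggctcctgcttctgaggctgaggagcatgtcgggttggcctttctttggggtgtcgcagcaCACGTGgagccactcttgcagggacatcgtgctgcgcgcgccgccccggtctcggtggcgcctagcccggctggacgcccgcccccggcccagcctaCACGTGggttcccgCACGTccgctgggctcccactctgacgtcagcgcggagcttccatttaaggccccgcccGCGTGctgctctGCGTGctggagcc
The Ldhb window held 1 GCGTG and 0 ACGTG. The Ldha window held 2 GCGTG and 5 ACGTG counted over both strands, and 2 copies of the E-box CACGTG, each of which counts as an ACGTG on each strand. A further listed Ldha start, 1 of 2, held 2 GCGTG and 0 ACGTG. Over 32851 promoter windows of 300 bases, 43.8% held either core and 7.15% held CACGTG. Of 16 windows listed for the 10 genes, some of them overlapping starts of 1 gene, 13 held either core; the Tpi1 window, 1 of 3 of Aldoa and 1 of 2 of Pkm held 0. A match is only a run of letters, and binding was not measured here.

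Pkm encodes the muscle-type pyruvate kinase, the last step of glycolysis, whose M1 and M2 forms come from alternative exons that a value per gene does not separate. It stood at 155, 182, 154 and 173 RPKM in control replicates 11, 12, 13 and 14 and at 96.8, 134, 119 and 108 RPKM in knockout replicates 4, 5, 19 and 20. All knockout libraries were below all controls, as in 16.0% of all tested genes. The means were 166 ± 14.1 and 114 ± 15.7 RPKM (SD, n = 4 each), and the log2 change was -0.54 ± 0.11 (SE; limma, adjusted p = 0.00331). Pkm passed under all 15 alternatives, with limma adjusted p between 0.000767 and 0.0190. Read numbers were 4621 to 7824 per library.

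Eno1 encodes alpha-enolase, which forms phosphoenolpyruvate and is the enolase of most tissues. Its level was 119.6, 136, 130.4 and 119.4 RPKM in control replicates 11, 12, 13 and 14, and 91.5, 94.7, 112 and 85.5 RPKM in knockout replicates 4, 5, 19 and 20. Knockout replicate 19 was the highest of its group, still below the lowest control, a separation found in 16.0% of all tested genes. The means were 126 ± 8.23 and 96.0 ± 11.5 RPKM (SD, n = 4 each), a log2 change of -0.40 ± 0.09 (SE; limma, adjusted p = 0.00885). The call was lost with the library total alone (log2 change -0.22, limma adjusted p = 0.166) and held in the other 14 alternatives. The separation was also lost with the library total alone. Knockout replicate 19 then stood at 125.6 RPKM, within the control range of 106.8 to 133.5 RPKM. Because Gapdh lies in the same pathway and did not pass the test, the ratio of Eno1 to Gapdh RPKM was formed within each library, a ratio chosen after the values were seen. It was 1.03 to 1.08 in the control and 0.723 to 0.857 in the knockout libraries, without overlap. How many of all tested genes separate by their ratio to Gapdh was not computed. The ratio is therefore no separate support for the fall of Eno1. The row Eno1b, a near-identical copy of Eno1, held 2 to 9 more reads than Eno1 in every library, so reads of the copies cannot be told apart and neither row is independent of the other.

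**Figure D2:**
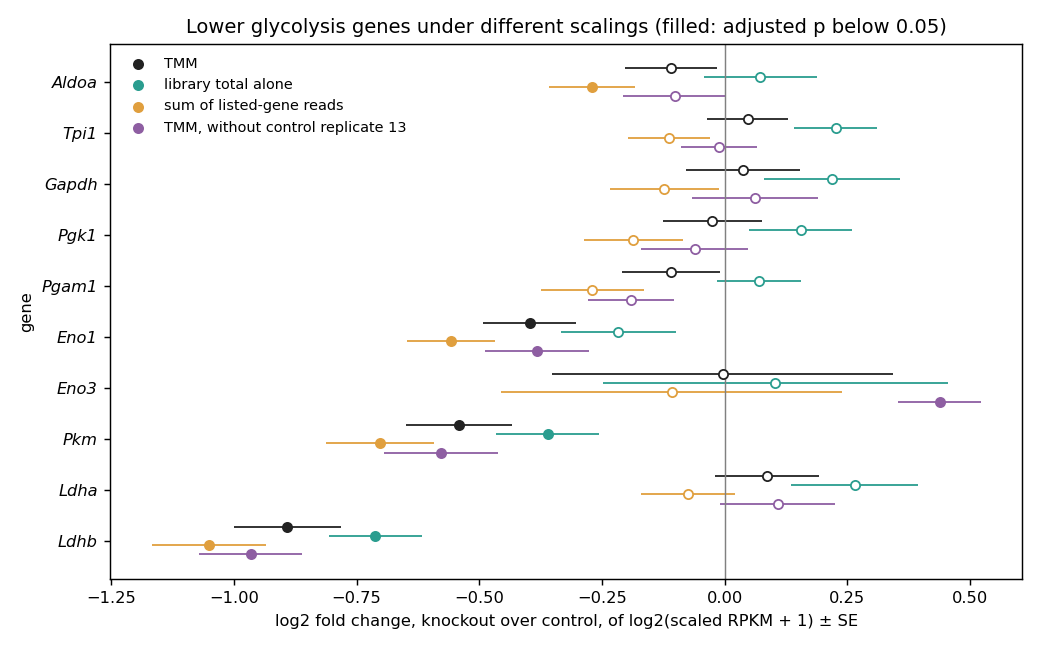
Log2 change of each transcript, knockout over control, with its standard error, under TMM, the library total alone, the sum of reads on listed genes, and TMM without control replicate 13; filled points have limma adjusted p below 0.05. Ldhb and Pkm are filled in all 4 settings, Eno1 is open with the library total alone, and Eno3 is filled only without control replicate 13.

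Eno3 encodes beta-enolase, the enolase of skeletal muscle. It was the least abundant of the 10, at 1.20, 1.10, 6.62 and 1.42 RPKM in control replicates 11, 12, 13 and 14 and at 2.14, 2.28, 1.79 and 1.93 RPKM in knockout replicates 4, 5, 19 and 20. Control replicate 13 stood far above the other 7 libraries, and the remaining 3 controls stood below all 4 knockouts. Over all libraries the log2 change was -0.0042 ± 0.35 (SE; limma, adjusted p = 0.993). Without control replicate 13 it was 0.44 ± 0.08 and passed the test (SE; limma, adjusted p = 0.00415; 17.9% of all tested genes were called higher and 32.2% in either direction without that library). The levels rest on 29 to 148 reads per library. In the authors' deposited table, which uses every library, the log2 fold change was -0.36, with an FDR of 0.583.

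Other muscle-type transcripts were high in the same control library. Pgam2, the muscle phosphoglycerate mutase, stood at 3.88 RPKM there and at 0.337 to 0.736 RPKM in the other 7 libraries. Myl1, a myosin light chain of fast muscle, stood at 17.6 RPKM against 7.11 to 10.8 RPKM. It is the only one of 19 skeletal muscle markers in the table, and the other 18 were not analysed here. Pygm, the muscle glycogen phosphorylase, stood at 4.92 RPKM against 0.555 to 0.796 RPKM, and Myom1, a sarcomere protein, at 1.52 RPKM against 0.311 to 0.632 RPKM; both were chosen after their values were seen. Relative to the mean of the other 3 controls, replicate 13 was 5.33-fold higher for Eno3, 7.24-fold for Pgam2, 7.10-fold for Pygm, 3.08-fold for Myom1 and 1.81-fold for Myl1. Among the 3 other controls and the 4 knockouts, Pgam2, Myl1, Pygm and Myom1 overlapped between genotypes and Eno3 did not. The share of all tested genes that do not overlap once control replicate 13 is set aside was not computed. How much muscle tissue contributed to any library was not tested.

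**Figure D3:**
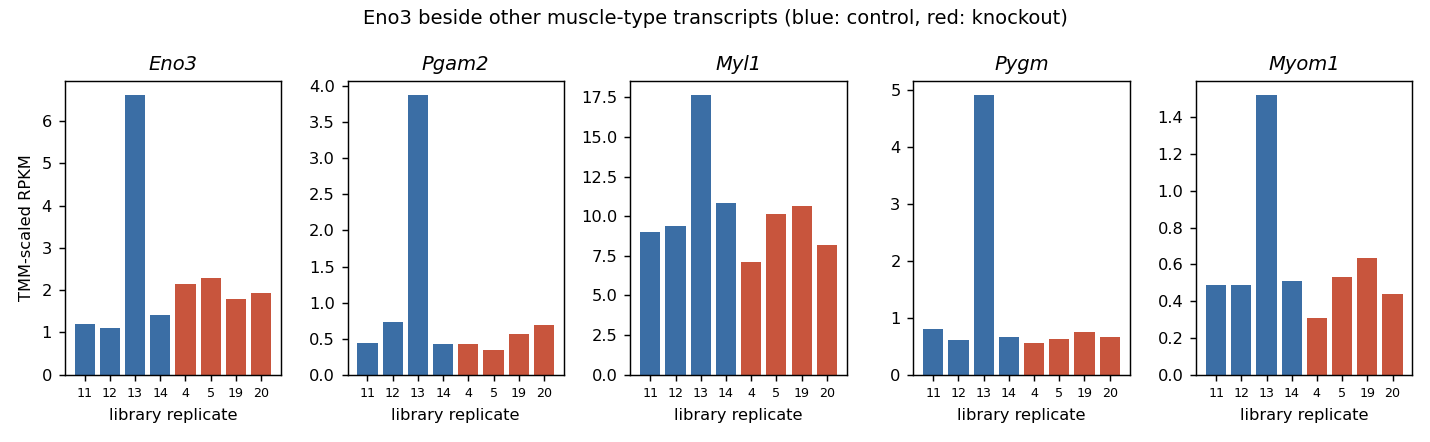
TMM-scaled RPKM of Eno3 and of 4 other muscle-type transcripts in each library (blue bars, control; red bars, knockout; replicate numbers on the x axis). Control replicate 13 is the highest library in all 5 panels, and the knockout bars exceed the other 3 control bars in the Eno3 panel alone.

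Transcripts of the first reactions of the lower pathway did not pass the test. Aldoa, aldolase A, was the most abundant of the 10 and stood at 193, 232, 223 and 233 RPKM in control replicates 11, 12, 13 and 14 and at 189, 199.8, 231 and 196 RPKM in knockout replicates 4, 5, 19 and 20. Tpi1, triose phosphate isomerase, ranged from 60.5 to 76.6 RPKM in control and from 67.2 to 72.7 RPKM in knockout libraries. Both overlapped between genotypes, with log2 changes of -0.11 (95% interval from -0.32 to 0.10; limma, adjusted p = 0.400) and 0.05 (95% interval from -0.14 to 0.23; limma, adjusted p = 0.695). The scaling matters here. With the library total alone, the deposited RPKM of Tpi1 averaged 64.4 ± 5.07 in controls and 75.4 ± 4.28 in knockouts (SD, n = 4 each). The groups did not overlap, with limma adjusted p = 0.0534, where 31.9% of all tested genes were called higher. Scaled by the summed reads of listed genes, Aldoa was called lower (log2 change -0.27, limma adjusted p = 0.0302), beside 30.2% of all tested genes.

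Gapdh, the dehydrogenase often used as a reference transcript, stood at 115, 130.5, 126 and 111 RPKM in control replicates 11, 12, 13 and 14 and at 107, 119, 155 and 118 RPKM in knockout replicates 4, 5, 19 and 20. Knockout replicate 19 was the highest of all 8, and the other 3 knockouts lay within or below the range of the controls. Its log2 change was 0.04 ± 0.12 (SE; limma, adjusted p = 0.825), with a 95% interval from -0.22 to 0.30. Pgk1, phosphoglycerate kinase, which forms ATP in the next step, had levels of 76.4 to 92.1 RPKM in control and 70.3 to 89.5 RPKM in knockout libraries (log2 change -0.03, 95% interval from -0.25 to 0.20; limma, adjusted p = 0.867). Pgam1, the phosphoglycerate mutase of most tissues, ranged from 62.5 to 83.4 RPKM and from 65.3 to 76.7 RPKM (log2 change -0.11, 95% interval from -0.33 to 0.11; limma, adjusted p = 0.428). Read numbers of these 3 genes were 1596 to 4129 per library.

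The order of the levels per length differed between genotypes in its middle ranks. In control libraries it ran Aldoa, Pkm, Eno1, Gapdh, Ldhb, Pgk1, Pgam1, Ldha, Tpi1 and Eno3. In knockout libraries it ran Aldoa, Gapdh, Pkm, Eno1, Pgk1, Ldha, Tpi1, Pgam1, Ldhb and Eno3, so that Ldhb moved from rank 5 to rank 9. The ranges of neighbours overlapped in 5 of 9 pairs in control and 6 of 9 in knockout libraries, although the order held within all 4 libraries for 7 of 9 and 5 of 9 pairs. Ranges did not overlap after Aldoa, Pkm, Gapdh and Tpi1 in control libraries, and after Aldoa, Pgam1 and Ldhb in knockout libraries. Summed over the 10 genes, the level was 956 to 1118 RPKM in control and 827 to 982 RPKM in knockout libraries, with means of 1029 ± 69.8 and 891 ± 72.4 RPKM (SD, n = 4 each). The groups overlapped in knockout replicate 19. With deposited RPKM the knockout sum differed from control by -1.76%, against -13.4% under TMM.

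**Figure D4:**
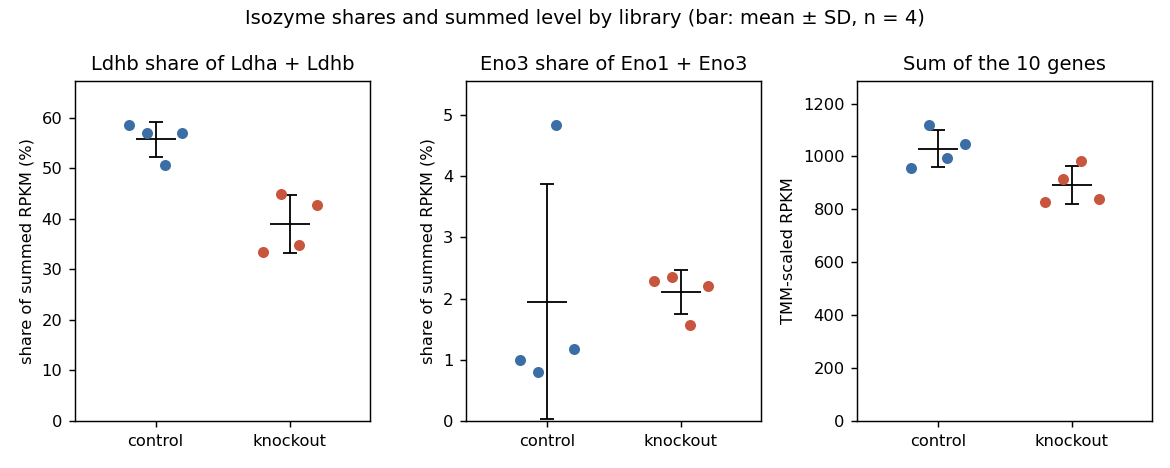
Ldhb as a share of Ldha plus Ldhb, Eno3 as a share of Eno1 plus Eno3 (both in percent of summed RPKM), and the summed TMM-scaled RPKM of the 10 transcripts, per library; bars are mean ± SD (n = 4). The Ldhb share is 50.7% to 58.5% in control and 33.4% to 44.8% in knockout libraries, the Eno3 share reaches 4.83% in 1 control, and the sums overlap.

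The 3 transcripts that fell were set beside the genes with the most similar pattern over the 8 libraries, measured as the root mean square difference of log2(RPKM + 1) after centring each gene. Eno1b was nearest to Eno1 at 0.0026, a match fixed by the reads that both rows share. The next nearest genes to Eno1 were Cript at 0.057 and Habp4 at 0.058. For Pkm these were 9330159M07Rik at 0.048 and the complex I subunits Ndufv2 at 0.058 and Ndufa10 at 0.067. For Ldhb they were Phyh, a peroxisomal hydroxylase of branched fatty acids, at 0.077, Nqo2, a quinone reductase, at 0.084, and Slc41a1, a magnesium carrier, at 0.085. The genotype difference is part of this pattern, so genes with a change of like size rank near by construction. Whether any of these genes share regulation was not tested.

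Of 12 other isoforms of these steps, 6 were in the table and 3 passed the filter. Of these, 1 fell (Eno1b) and 0 rose, beside 15.9% and 19.4% of all tested genes. Eno1b counts nearly the same reads as Eno1 and so adds no separate result. Bpgm and Ldhd did not pass the test. With the library total alone, which called 31.9% of all genes higher and 7.17% lower, 1 of the 3 was higher and 0 lower. Aldoc, aldolase C, was too low to be tested. It ranged from 0.536 to 0.890 RPKM in controls and from 0.033 to 0.096 RPKM in knockouts, lower without overlap, as in 16.0% of tested genes. In the authors' deposited table its log2 fold change was -3.20, with an FDR of 5.22e-13. Gapdhs and Pgam2 were likewise below the filter, and the deposited table calls Pgam2 lower (log2 fold change -1.44, FDR of 0.0417), a gene in which control replicate 13 stood apart.

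In the upper part of glycolysis genes of the phosphofructokinase step changed in both directions. The table held 13 of these genes and 10 passed the filter, of which 3 rose and 3 fell, beside 19.4% and 15.9% of all tested genes, with a median log2 change of -0.09. Pfkl, Pfkm and Pfkp encode the liver, muscle and platelet subunits of phosphofructokinase, which did not move together. Pfkl fell from 24.6 ± 2.29 to 12.0 ± 0.860 RPKM, and Pfkm went down from 12.2 ± 0.436 to 6.35 ± 0.404 RPKM, while Pfkp rose from 3.65 ± 0.537 to 5.33 ± 0.226 RPKM (SD, n = 4 each; limma, adjusted p = 0.00234). Pfkfb1 and Pfkfb3, which make the activator fructose-2,6-bisphosphate, rose, Pfkfb1 from 7.59 ± 1.13 to 14.2 ± 2.16 RPKM and Pfkfb3 from 10.8 ± 0.394 to 20.5 ± 5.67 RPKM (SD, n = 4 each). Limma adjusted p for Pfkl, Pfkm, Pfkfb1 and Pfkfb3 was at most 0.00209. Slc2a4, the insulin-responsive glucose carrier, stood at 39.8 ± 5.38 and 41.9 ± 6.19 RPKM (limma, adjusted p = 0.699). Slc2a1 and Pfkfb4 were among those below the filter.

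Carriers and enzymes that take lactate and pyruvate onward changed in both directions. Of 15 genes tested, 5 rose and 4 fell, beside 19.4% and 15.9% of all tested genes, with a median log2 change of -0.21. The balance depended on the scaling, with 6 higher and 4 lower by the library total alone and 3 higher and 8 lower by the listed-gene sum. Slc16a1, the lactate and pyruvate carrier MCT1, fell from 17.7 ± 2.81 to 8.02 ± 1.21 RPKM, and its relative Slc16a7 from 2.98 ± 0.621 to 1.00 ± 0.0956 RPKM. Pdha1, a subunit of pyruvate dehydrogenase, fell from 141 ± 3.62 to 88.7 ± 6.37 RPKM, and Pcx, pyruvate carboxylase, rose from 40.1 ± 4.28 to 83.5 ± 14.1 RPKM (SD, n = 4 each). Limma adjusted p for these 4 was at most 0.000188. In all 3 of Ldhb, Slc16a1 and Pdha1, every knockout library was below every control library, as in 16.0% of all tested genes. Of the 15 carriers and enzymes tested, 4 were lower without overlap. Another 5 (Bsg, Mpc1, Pdk2, Pdp2 and Pcx) were higher without overlap, as were 18.8% of all tested genes.

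Of 8 genes of the shuttles that carry the electrons of cytosolic NADH into mitochondria, 5 fell and 0 rose (median log2 change -0.35), beside 15.9% and 19.4% of all tested genes. Gpd2, the mitochondrial glycerol-3-phosphate dehydrogenase, fell from 43.2 ± 5.10 to 24.01 ± 1.48 RPKM and Got1, the cytosolic aspartate aminotransferase, from 2.55 ± 0.490 to 1.09 ± 0.0777 RPKM. Gpd1, the cytosolic partner of Gpd2, stood at 351 ± 41.1 and 301 ± 43.2 RPKM (SD, n = 4 each; limma, adjusted p = 0.171). In the tricarboxylic acid cycle, which burns what pyruvate dehydrogenase supplies, 11 of 17 fell and 0 rose (median log2 change -0.37), beside the same shares of all genes. The lists share genes, so their counts are not separate. Mdh2, which fell, is counted in the shuttle list and in the cycle list. Dld, which did not pass the test, is in the cycle list and among the carriers and enzymes above. Under the library total alone, which called 31.9% of all genes higher and 7.17% lower, the shuttle list had 2 higher and 3 lower and the cycle list 1 higher and 8 lower. By the listed-gene sum, which called 12.4% higher and 30.2% lower, the counts were 0 higher and 6 lower for the shuttles and 0 higher and 14 lower for the cycle.

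Regulators were compared from a list of transcription factors and oxygen sensors that act on glycolytic genes. Of 15 tested, 3 rose and 1 fell, beside 19.4% and 15.9% of all tested genes, so the share that rose was near that of all genes. The counts were 8 higher and 1 lower by the library total alone and 1 higher and 4 lower by the listed-gene sum, and the median log2 change was 0.15 under TMM and -0.0025 by the listed-gene sum. Mlxipl, the glucose-responsive factor ChREBP, fell from 11.5 ± 1.23 to 6.41 ± 0.901 RPKM, and Epas1, the hypoxia-inducible factor HIF-2 alpha, rose from 18.1 ± 1.35 to 23.3 ± 1.48 RPKM (SD, n = 4 each; limma, adjusted p = 0.000353 and 0.00566). Egln2, of the same list, rose from 5.88 ± 0.567 to 8.05 ± 0.718 RPKM (SD, n = 4 each, limma adjusted p = 0.00461). Hif1a ranged from 3.92 to 4.39 RPKM in controls and from 4.595 to 4.78 RPKM in knockouts. It was higher without overlap, as were 18.8% of all tested genes, but its adjusted p of 0.0696 (limma) missed the threshold. Of 10 hypoxia-induced genes outside glycolysis, 2 rose and 3 fell, against the same 19.4% and 15.9% of all tested genes. With the library total alone 3 were higher and 1 lower, and by the listed-gene sum 2 were higher and 6 lower. Bnip3, a mitophagy receptor, rose from 58.2 ± 3.49 to 95.7 ± 13.7 RPKM, and Ndrg1 fell from 4.87 ± 0.493 to 2.74 ± 0.253 RPKM (SD, n = 4 each; limma, adjusted p = 0.000631 and 0.000170).

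**Figure D5:**
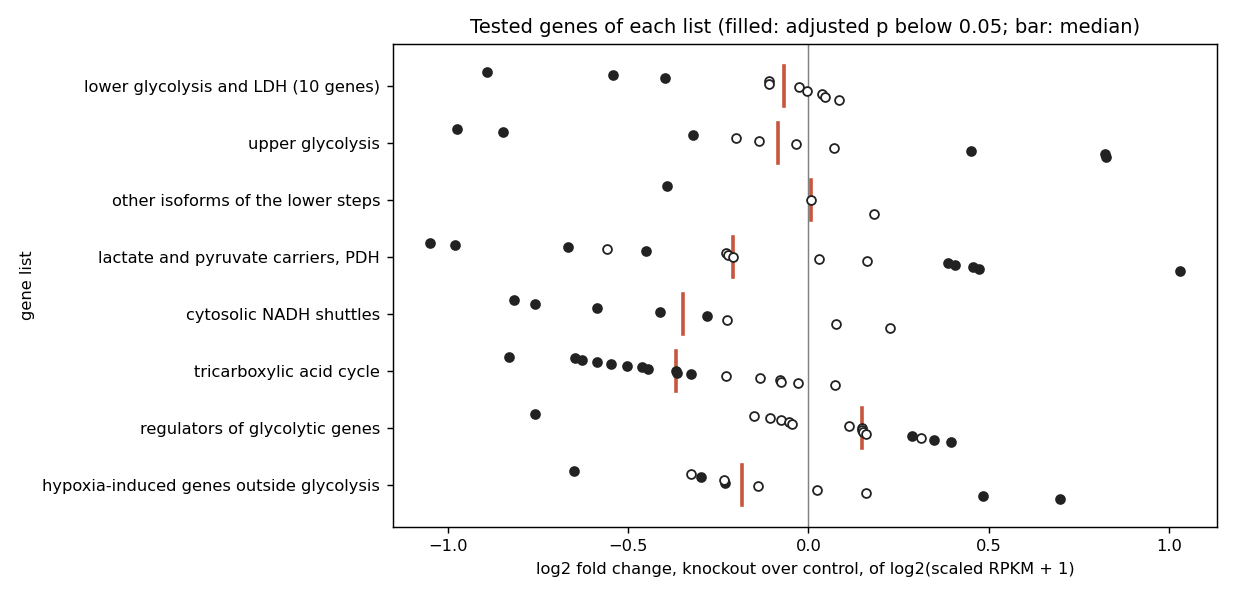
Log2 change, knockout over control, of every tested gene in the 10 lower glycolysis transcripts and in 7 related lists; filled points have limma adjusted p below 0.05 and red bars are medians. The median of the lower glycolysis row is -0.07 and that of the tricarboxylic acid cycle row -0.37.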

How the data were processed

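TopHat2, featureCounts, edgeR and mouse build mm9 are named in the submitters' processing notes; their versions, the annotation, strand use and any filter are not given there. The authors' deposited table gives, per the file headers, RPKM for every library, plus a log2 fold change (positive where the knockout is higher), a mean log2 CPM, and p-values with their FDR. The deposited RPKM values are whole multiples of 1 read: 100% of values gave whole read numbers, with a tolerance of 0.001 reads, after a factor shared by all libraries was corrected in 44 genes. Intervals and read numbers cover no PCR duplication.

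TMM factors (trim 0.3 and 0.05) were computed on these reads with the implied library totals and ranged from 0.893 to 1.12. Two-sided tests on log2(TMM-scaled RPKM + 1) used limma 3.58.1 with a trend (R 4.3.3); this scale understates changes of low genes. Levels, shares and figures used Python 3.11.15.

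The genes, lists and tests were chosen with earlier results of these data known. Named genes are the 10 chosen, the deleted gene Hdac3, and the 3 genes most alike each member that fell. From each list, up to 4 genes past the threshold with the smallest adjusted p could be named, and not all of these are. Genes named beside these (Slc2a4, Slc2a1, Pfkp, Pfkfb4, Bsg, Mpc1, Pdk2, Pdp2, Dld, Gpd1, Ldhd, Bpgm, Gapdhs, Pgam2, Aldoc, Hif1a, Lipe, Adipoq, Cidea, Pparg, Myl1, Pygm and Myom1) were added after their values were seen. Alternatives were the library total alone, RLE size factors, the sum of reads on listed genes, no filter, a mean of at least 5 RPKM, pseudocount 0.1, voom weights (limma) on the recovered reads, and leaving out each library with the factors of the full set. Reads shared with processed copies of Gapdh, Eno1 and other members may be counted at several genes. Of the other marker lists, 0 of 5 erythroid genes passed, 1 of 8 endothelial genes fell, and 2 of 3 white adipocyte genes rose. Over all tested genes 19.4% rose and 15.9% fell. By the library total alone, calling 31.9% higher and 7.17% lower, endothelial genes were 1 higher and 0 lower and white adipocyte genes 3 higher. By the listed-gene sum, calling 12.4% higher and 30.2% lower, endothelial genes were 0 higher and 3 lower and white adipocyte genes 2 higher.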

Additional observations from a re-analysis of the deposited data

Results flagged for a closer look

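Among 94 sets of 4 libraries checked, 10 held 1 library that Dixon's criterion at 95% sets apart, which chance does in about 1 in 20. These sets include genes added after their values were seen, Pgam2, Pygm and Myom1 among them, so the 10 cannot be read against chance. Without the added genes 7 of 74 sets did so, 4 of them in control replicate 13, and of these Eno3 and its share rest on the same values. Eno3 stood at 6.62 RPKM in that library (others 1.10 to 1.42), its share of Eno1 plus Eno3 at 4.83% (others 0.799% to 1.18%), Pgam2 at 3.88 RPKM (others 0.432 to 0.736), Pygm at 4.92 RPKM (others 0.618 to 0.796) and Myom1 at 1.52 RPKM (others 0.486 to 0.511). Gpd2 at 50.9 RPKM (others 39.9 to 41.2) and Ndrg1 at 5.61 RPKM (others 4.59 to 4.65) were also high in control replicate 13. Pfkfb1 was high in control replicate 12 at 9.27 RPKM (others 6.85 to 7.22). Ogdh was at 73.1 RPKM in knockout replicate 5 (others 61.4 to 62.1) and Epas1 at 21.1 RPKM in knockout replicate 20 (others 23.9 to 24.4).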

How the results depend on the processing

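Of all genes tested, 3094 passed (1703 higher, 1391 lower); with a mean of at least 5 RPKM 1485 of 2867 did (907 higher, 578 lower), fewer genes being tested. The library total alone gave 2796 higher and 628 lower, the listed-gene sum 1087 and 2651, and these moved the median log2 change to 0.14 and -0.11. Of the 10 transcripts, 3 or 4 passed without any 1 library, 2 with the library total alone and 4 with the listed-gene sum. Leaving out 1 library gave 2611 to 2819 genes in all. The summed level changed by -13.4%, by -1.76% with the library total alone, by -22.7% with the listed-gene sum and by -16.4% to -10.9% without 1 library. The Ldhb share changed by -16.8 percentage points, and by -18.8 to -15.0 without 1 library. The Eno3 share changed by 0.152 percentage points, and by -0.23 to 1.11 without 1 library, the highest value being without control replicate 13.

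The sign of transcripts that did not pass turned as follows (log2 change). With the library total alone, Aldoa was 0.072, Pgk1 0.15, Pgam1 0.070 and Eno3 0.10. With the listed-gene sum, Tpi1 was -0.11, Gapdh -0.12 and Ldha -0.075. Without control replicate 13, Tpi1 was -0.011 and Eno3 0.44; without control replicate 14, Gapdh was -0.0020; without control replicate 12, Pgk1 was 0.03. Without knockout replicate 19, Gapdh was -0.072 and Eno3 0.035; without knockout replicate 20, Pgk1 was 0.0019 and Eno3 0.012; without knockout replicate 4, Pgk1 was 0.041. The ranges without 1 library were -0.011 to 0.10 for Tpi1, -0.072 to 0.11 for Gapdh, -0.073 to 0.041 for Pgk1 and -0.18 to 0.44 for Eno3. Eno3 was 0.090 with a pseudocount of 0.1 and 0.15 with voom, and has no value at a mean of at least 5 RPKM. Among the fits without 1 library, Eno3 moved most without control replicate 13, where it stood at 6.62 RPKM. The cause of these turns was not tested. No paired analysis was possible because the genotypes share no replicate number. Depth limits Eno3, at 29 to 148 reads per library, more than the other 9 transcripts, which held at least 1042.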
